A study of Mus musculus with 47 samples.

Results

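The Hoxa cluster was followed through 8 listed genes, Hoxa2, Hoxa3, Hoxa4, Hoxa5, Hoxa6, Hoxa7, Hoxa9 and Hoxa10, chosen by name and found through the RefSeq name of each 3′ UTR row. Of these, 7 had a row among the 18796 genes with a symbol, and Hoxa6 was not analysed here. Hoxa2, Hoxa3, Hoxa4, Hoxa5 and Hoxa7 had reads in more than 1 library, Hoxa10 had reads in a single library and Hoxa9 had none.

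The libraries are SLAM-seq libraries of P19 cells, a wild-type line of mouse embryonal carcinoma that was grown as undifferentiated cells (D0, 24 libraries) or turned towards neurons for 6 days in NDiff 227 medium with 500 nM retinoic acid (D6, 23 libraries). In SLAM-seq, RNA made in the presence of 4-thiouridine (4sU) carries this uridine analog, which after alkylation is sequenced as C, and new RNA is thus counted by its T>C conversions. D0 cells received 20 µM and D6 cells 500 µM of 4sU, so that dose and state cannot be told apart in any comparison of labeled cells. The anabolic assay followed uptake of label and the catabolic assay its loss after the end of labeling, each at 0, 3, 6 and 9 h by the study's methods (0, 1, 3 and 9 in the sample labels, hence T0, T1, T3 and T9), with 3 libraries per group and 2 at T3 of the catabolic assay at D6. For the labeling before the chase the methods give 2 different lengths, both longer than 9 h. All cells come from 1 line, the study calls the libraries of a group biological replicates, but the sources do not say whether these are separate cultures. Where they are not, p-values measure only the spread between libraries, which may be technical.

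Hox genes encode homeodomain transcription factors that set position along the axis from head to tail. Within a cluster the genes lie in the order in which they are used along the body, and those at the 3′ end respond first and most readily to retinoic acid. In the hindbrain and spinal cord, genes of the 3′ and middle part mark hindbrain to brachial levels, and genes of the 5′ part mark more caudal levels.

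The regulatory sequences that bear on the measured 3′ UTRs are the seeds of 2 microRNA families whose genes lie inside Hox clusters. They are shown with the seed, bases 2 to 8, in capitals, from RefSeq (GRCm38.p6). The gene of miR-196b lies between Hoxa9 and Hoxa10 on chromosome 6 and that of miR-10a lies in the Hoxb cluster on chromosome 11.
mmu-miR-196b-5p, chr6:52230129-52230150, minus strand: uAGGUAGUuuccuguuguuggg
mmu-miR-10a-5p, chr11:96317186-96317208, plus strand: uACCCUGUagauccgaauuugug

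The complement of the miR-196 seed, ACTACCT, occurred once each in the 3′ UTRs of Hoxa4, Hoxa5 and Hoxa9, and the complement of the miR-10 seed, ACAGGGT, once in that of Hoxa3. Both were searched on the strand of the mRNA. The matched letters are in capitals below, read from mouse transcripts of the mm10 build, minus strand.
Hoxa3, chr6:52169654-52169660: ttgataagaaACAGGGTatatgaacaa
Hoxa4, chr6:52190067-52190073: ctggccatcgACTACCTttgagtcagc
Hoxa5, chr6:52202119-52202125: ttttattcaaACTACCTatattccttg
Hoxa9, chr6:52223901-52223907: aggaaagaaaACTACCTttttatataa

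Among 3′ UTRs within 10% of the same length, ACTACCT was held by 3.00% for Hoxa4, 3.23% for Hoxa5 and 4.57% for Hoxa9, and ACAGGGT by 9.76% for Hoxa3. The AU-rich pentamer ATTTA occurred 6 times in Hoxa3, 4 in Hoxa4, 2 each in Hoxa5 and Hoxa10 and 5 in Hoxa9. It did not occur in Hoxa2 or Hoxa7. For Hoxa7 only the 94 bases of its row were searched for ATTTA and the seed matches, although a coding transcript ends further 3′. Among 3′ UTRs of like length, ATTTA was held by 69.5% for Hoxa3, 61.5% for Hoxa4 and 63.8% for Hoxa5. The share was 80.1% for Hoxa9, 82.3% for Hoxa10, 50.4% for Hoxa2 and 12.9% for Hoxa7. In the RefSeq promoters (250 bases before to 50 after the start of each gene), which held 7 of the 8 listed genes, the retinoic acid receptor half-site AGGTCA was found in Hoxa5 alone, on the strand of the gene, at position 42 counted from the start of the gene (both strands searched). On either strand, 16.3% of 32851 promoters held it. A match of letters is a description and not a site.
Hoxa5, chr6:52204541-52204546, minus strand: gtttacctctagAGGTCAtca

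At D6, Hoxa2, Hoxa3, Hoxa4, Hoxa5 and Hoxa7 had reads in the libraries without 4sU, and Hoxa9 and Hoxa10 had none there. Hoxa5 was by far the most abundant member. At D0 the members were near 0. The 3′ UTRs measured are on chromosome 6 of mm10, minus strand, and all values are reads scaled to the total on mRNA 3′ UTRs (counts per 1e6, CPM).

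**Figure D1:**
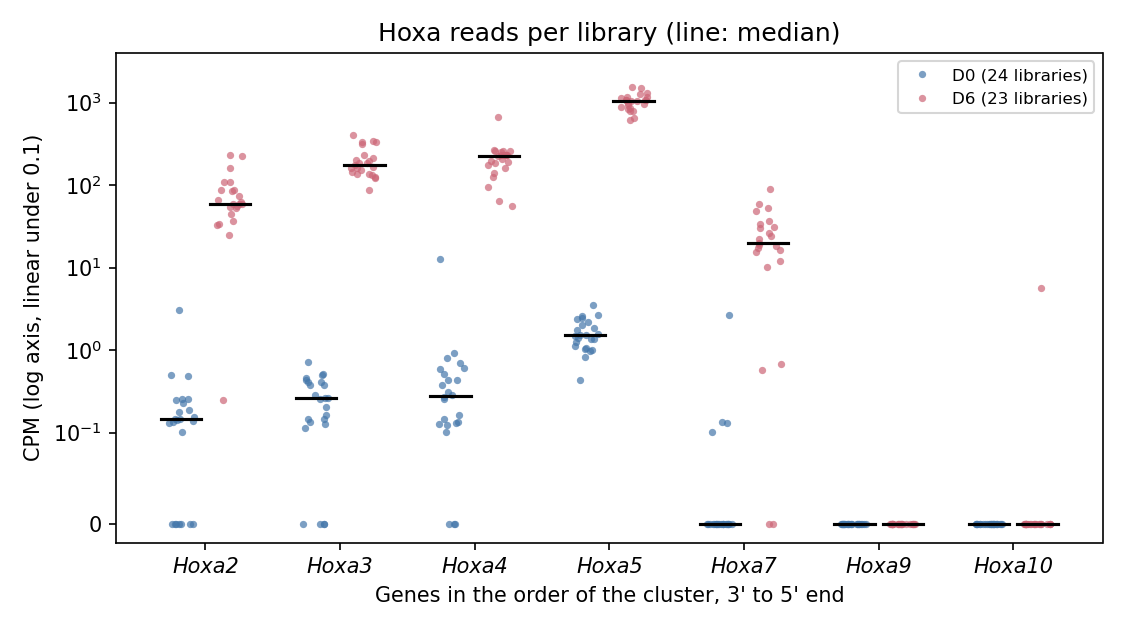
CPM in each library (points) and the median (line) at D0, 24 libraries, and D6, 23 libraries, for the members in the order of the cluster, on an axis that is logarithmic above 0.1. D6 points of Hoxa3, Hoxa4 and Hoxa5 lie above all D0 points, and Hoxa9 lies at 0 throughout.

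Hoxa2 (NM_010451.2, chr6:52162417-52162885, 469 bases), which patterns the hindbrain, had 273, 116 and 361 reads in the D6 libraries without 4sU and 1, 1 and 0 reads in those of D0. Its level was 49.6 ± 14.7 CPM at D6 (SD, n = 3). Over all D6 libraries it ran from 0.248 through a median of 59.8 to 234 CPM, and over all D0 libraries from 0 through 0.144 to 3.04 CPM, so that 1 D6 library fell among those of D0.

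Hoxa3 (NM_010452.3, chr6:52169062-52169939, 878 bases), a regulator of caudal hindbrain and pharyngeal arch structures, had 579, 481 and 1126 reads at D6 without 4sU and 2, 2 and 0 at D0. Its level was 145 ± 19.1 CPM at D6 (SD, n = 3). Over all libraries, its lowest D6 value of 86.9 CPM lay above its highest D0 value of 0.716 CPM.

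Hoxa4 (NM_008265.3, chr6:52189687-52190341, 655 bases) had 614, 940 and 1679 reads at D6 without 4sU against 2, 2 and 4 at D0, or 219 ± 70.3 CPM at D6 (SD, n = 3). Its D6 libraries ran from 56.2 to 675 CPM, with a median of 228. The D0 libraries had a median of 0.278 CPM, and 1 library of the catabolic assay at T0 stood at 12.6 CPM, still under every D6 library.

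Hoxa5 (NM_010453.5, chr6:52201754-52202580, 827 bases), which acts in brachial motor neurons and in lung, had 3859, 2752 and 7321 reads at D6 without 4sU and 13, 6 and 9 at D0. This was 917 ± 153 CPM at D6 and 1.45 ± 0.374 CPM at D0 (SD, n = 3 each). Its D6 libraries ran from 615 to 1537 CPM and its D0 libraries had a median of 1.51 CPM, without overlap. Hoxa5 made up 66.5% ± 6.94 of the summed CPM of the members at D6 (SD, n = 23).

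Hoxa7 (NM_010455.2, chr6:52215623-52215716) had 230, 77 and 208 reads at D6 without 4sU and none at D0, or 52.1, 22.1 and 30.9 CPM at D6. It was at 0 in 2 of the 23 D6 libraries and in 20 of the 24 D0 libraries, and a single D0 library reached 2.65 CPM, so that the states overlapped. The row of Hoxa7 spans 94 bases, with 19 T positions. A coding transcript of Hoxa7 in GENCODE ends at position 52214498, inside the row of the non-coding Mira (chr6:52214491-52215288), so that reads near that end are not in the values of Hoxa7.

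Hoxa9 (chr6:52223097-52224243) and Hoxa10 (chr6:52231197-52232505), of the 5′ part of the cluster, were near or at 0 in both states. Hoxa9 had no read in any of the 47 libraries, which allows up to 0.0325 CPM over the D6 libraries together (3 reads of 92403384, counting error only). Hoxa10 had 23 reads, all in 1 D6 library of the catabolic assay at T9. Further 5′, Hoxa13 had none and Hoxa11 had 29 reads in 1 D6 library.

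Beyond the 5′ end of the cluster, reads appeared again at D6. The neighboring homeobox gene Evx1 had no read at D0 without 4sU and 16.1 ± 13.8 CPM at D6 without 4sU (SD, n = 3), and was called higher (edgeR adjusted p = 0.0401). It was not called at the 2 points with 4sU where it passed the filter, with edgeR adjusted p = 0.603 at T9 of the anabolic and 0.286 at T3 of the catabolic assay. Over all libraries Evx1 had 688 reads at D6 and 70 reads at D0, the latter in 5 of 24 libraries. Its non-coding neighbor Evx1os had 290 reads at D6 and none at D0.

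Per kilobase of 3′ UTR, the levels at D6 without 4sU were 1109 ± 185 for Hoxa5, 373 ± 164 for Hoxa7, 335 ± 107 for Hoxa4, 166 ± 21.8 for Hoxa3 and 106 ± 31.3 for Hoxa2 (CPM per kb, SD, n = 3). In these 3 libraries Hoxa7 and Hoxa4 overlapped, and the other neighbors in this order did not. Over all 23 D6 libraries Hoxa7 and Hoxa4 changed places, with means of 269 and 329 CPM per kb and Hoxa7 above Hoxa4 in 7 libraries. Hoxa4 lay above Hoxa3 in 18 and Hoxa3 above Hoxa2 in 17 of the 23. Libraries were made from the 3′ ends of mRNA, so that reads need not scale with the length of the 3′ UTR. On the CPM scale without length, the order was Hoxa5, Hoxa4, Hoxa3, Hoxa2 and Hoxa7, with overlap between Hoxa4 and Hoxa3 and between Hoxa2 and Hoxa7. Only 2 states were sampled, so that an order of the genes in time was not measured.

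The question of D6 against D0 was tested first in the cells without 4sU, 3 libraries against 3. Of the 7 members with a row, 5 passed the filter on low counts, and the log2 difference was 8.60 (SE 1.25) for Hoxa2, 9.30 (SE 0.78) for Hoxa3, 8.99 (SE 0.58) for Hoxa4, 9.31 (SE 0.37) for Hoxa5 and 10.63 (SE 1.72) for Hoxa7. The value of Hoxa7, with no read at D0, is a fitted one. For Hoxa3 the difference was 8.70 without T0 replicate 57 of D0. All 5 were called higher, where 7.08% of all 11055 features tested were called higher (edgeR quasi-likelihood test). They could pass the filter only through their D6 libraries, so that the count itself is no support. The adjusted p was 0.00123 for Hoxa2, 3.27e-05 for Hoxa3, 4.92e-06 for Hoxa4, 2.31e-07 for Hoxa5 and 0.0046 for Hoxa7 (edgeR, Benjamini-Hochberg over all features tested).

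The median log2 difference was 9.30 over the 5 members tested and -0.05 over all features tested. These members could pass the filter only through D6, so that this median and the separations below are descriptions and no support. A ratio of pooled counts for Hoxa5 was 642 (95% interval 444 to 966) and for Hoxa4 521 (264 to 1209), by counting error only. For Hoxa7, with no read at D0, the level was at least 221-fold higher at D6, taking 3 reads over the D0 group as the floor. In these libraries D6 was above D0 in every library for the 5 members, as for 17.8% of the features tested. Over all 47 libraries the states separated fully for Hoxa3, Hoxa4 and Hoxa5, as for 2.04% of the features tested.

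The 7 other assay and time points were other libraries with 4sU. Hoxa3, Hoxa4 and Hoxa5 were called higher at D6 at all 8 points, with log2 differences from 8.90 to 10.42 for Hoxa3, 5.80 to 10.84 for Hoxa4 and 8.48 to 9.90 for Hoxa5. Hoxa2 was called at the 7 points where it passed the filter, from 6.99 to 10.31. Hoxa7 was called at 4 of the 5 points where it passed, and at T1 of the anabolic assay its log2 difference was 4.69 (SE 2.36, edgeR adjusted p = 0.249). The lowest value of Hoxa4 stood at T0 of the catabolic assay, the group that holds the D0 library with 12.6 CPM. At T3 of the catabolic assay, the median over all features was itself shifted to -0.78. Of all features tested, 7.72%, 7.18% and 5.63% were called higher at T1, T3 and T9 of the anabolic assay, and 7.23%, 8.48%, 4.33% and 11.1% at T0, T1, T3 and T9 of the catabolic assay.

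**Figure D2:**
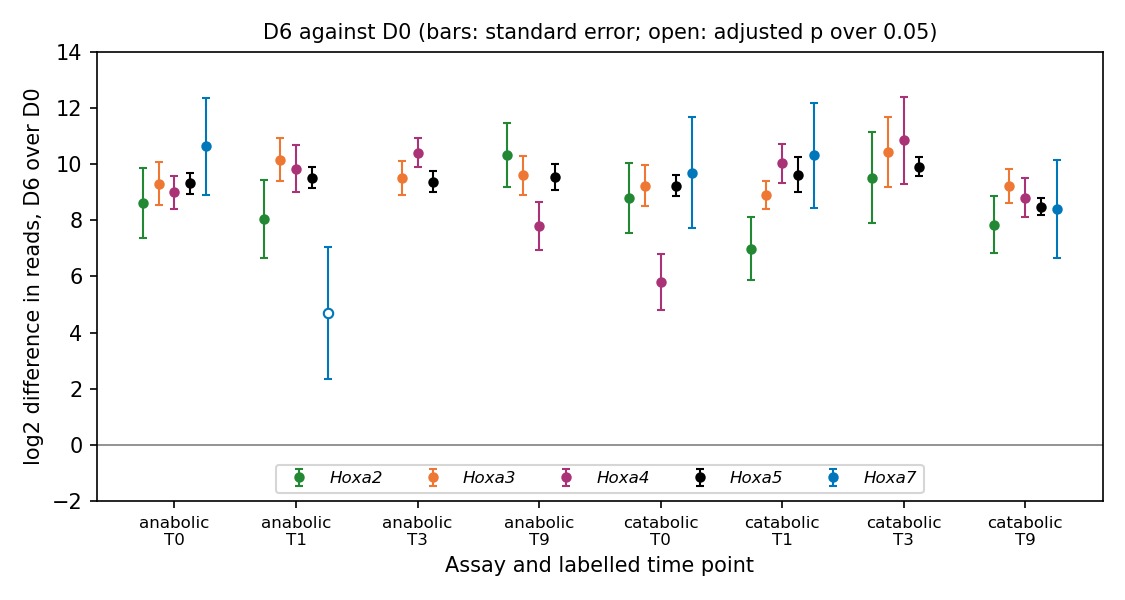
Log2 difference in reads between D6 and D0 with its standard error (edgeR) at each assay and labeled time point, for the members that passed the filter there. Filled points were called and the open point, Hoxa7 at anabolic T1 with 4.69, was not.

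Reads jumped between libraries of a group in a way that touched the low members most. Over the D6 libraries the coefficient of variation was 22.6% for Hoxa5, 42.1% for Hoxa3, 54.7% for Hoxa4, 73.6% for Hoxa2 and 84.3% for Hoxa7. Over all features, 1284 at D6 and 1407 at D0 had no read in 1 library without 4sU and at least 50 reads in another. Depth on mRNA 3′ UTRs ran from 1425266 to 7649974 reads at D6 and from 3336544 to 11344758 at D0. The part of depth in these jumps was not tested.

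From library to library within D6, the levels of the members were only weakly related. Pearson's r of log2(CPM + 1) between pairs ran from -0.42 for Hoxa3 with Hoxa7 to 0.26 for Hoxa2 with Hoxa7 over the 23 D6 libraries, which share depth and time points. Across all 47 libraries, the genes outside the cluster whose level was most like the summed CPM of the members were Hoxb3, Hoxb4, Hoxb2, Hoxb5 and Hoxb8, with r from 0.989 to 0.994. This likeness rests on the 2 states. Within D6 the most alike were Atxn7l3b, Selenof, Cdc5l, Sec13 and Tomm7, with r from 0.735 to 0.759.

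In the Hoxb cluster, 8 of the 10 genes with a row were tested and all 8 were called higher, where 7.08% of all features tested were, from Hoxb9 with a log2 difference of 7.24 to Hoxb2 with 9.98. In Hoxc, 4 of 5 tested were called, among them Hoxc4 with 1043 CPM at D6. Hoxc9 was tested and not called (edgeR adjusted p = 0.171). In Hoxd, 2 of 3 tested were called, Hoxd4 and Hoxd3, and Hoxd8 was not (edgeR adjusted p = 0.0618). Hoxd1 had no read at D6 without 4sU and Hoxb1 had a mean of 2.92 CPM there. Most of the called genes were near 0 at D0 and passed the filter on low counts through their D6 libraries, so that these counts, as for Hoxa, are no support. The summed level of the listed Hoxa genes at D6 without 4sU was 1253 to 1588 CPM, against 7283 to 8058 CPM for the Hoxb cluster. Hoxb9, the paralog of Hoxa9, had 1134 CPM at D6, where Hoxa9 had no read.

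HOX proteins bind DNA with cofactors of the PBX and MEIS families. Of 9 such genes tested, 4 were called higher and none lower, where 7.08% of all features tested were called higher and 5.19% lower. Meis2 rose by a log2 difference of 4.16, Meis1 by 2.93 and Pbx3 by 2.20. Pbx2 had a log2 difference of -0.04 (edgeR adjusted p = 0.959).

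Of the regulators upstream of the cluster, 11 of 17 were tested, of which 6 were called higher and 1 lower, beside the same shares over all features. Gbx2 had no read at D0 and 29.4 CPM at D6 without 4sU (edgeR adjusted p = 0.00679). Retinoic acid receptor beta, Rarb, itself a target of retinoic acid, rose from 3.94 to 115 CPM. The retinoic acid hydroxylase Cyp26b1 rose to 1899 CPM and Tcf7l1, a repressor in the Wnt pathway, fell by 2.78 on the log2 scale. The caudal factors Cdx1, Cdx2 and Cdx4, which act on the middle and 5′ Hox genes, had no read without 4sU in either state.

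Trithorax and MLL complexes are known to keep Hox clusters active and Polycomb complexes to keep them silent. Of 9 trithorax and MLL genes tested, none was called, with Kdm6b, a demethylase of H3K27, at a log2 difference of 0.95 (edgeR adjusted p = 0.15). Of 15 Polycomb genes, 1 was called higher and 1 lower, where 7.08% of all features tested were called higher and 5.19% lower. These were Bmi1, with a log2 difference of 4.16, and Phc1, with -1.05. Among the 6 neighbors of the cluster that were tested, Skap2 was called higher, from 2.92 to 169 CPM, and the other 5 were not called.

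The D6 libraries carried neuron markers and few markers of other types. Of 10 neuron markers 9 were called higher, where 7.08% of all features tested were called higher and 5.19% lower. The summed level of the neuron markers was 9258 to 10790 CPM at D6 against 566 to 717 CPM at D0. All 4 tested markers of undifferentiated cells were called lower, among them Pou5f1 and Lin28a, whereas Zfp42 and Dppa5a had no read in either state. Of 6 glia markers, 5 were at 0 at D6. Mesoderm and endoderm markers summed to 9.74 to 18.9 CPM at D6 and 95.2 to 152 CPM at D0. In bulk samples, fewer cells of a type and less RNA per cell cannot be told apart.

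Mean label at D6 in Hoxa2, Hoxa3, Hoxa4 and Hoxa5 was higher after 9 h of labeling than without 4sU. In these members it was lower after 9 h of chase than at the start of the chase. For Hoxa5, the conversion rate without 4sU was 0.144%, 0.00760% and 0.00589% of covered T positions in the 3 libraries. After 3 h of labeling the mean was 0.303% ± 0.0720, after 6 h 3.15% ± 0.756 and after 9 h 4.89% ± 0.488 (SD, n = 3 each). At the start of the chase the 3 libraries stood at 4.86%, 5.10% and 4.84%, so that the rate after 9 h of uptake overlapped with it.

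During the chase, Hoxa5 stood at 4.86% ± 0.701 after 3 h (SD, n = 3), at 3.28% and 1.51% in the 2 libraries of 6 h, and at 0.274%, 0.673% and 0.325% after 9 h. No library at 9 h reached the level at the start. Hoxa3 went from 5.37% ± 0.120 at the start to 0.106% ± 0.0974 at 9 h (SD, n = 3 each). Hoxa4 went from 4.31% ± 0.684 to 0.834% ± 0.800 and Hoxa2 from 3.35% ± 1.42 to 0.0434% ± 0.0752 (SD, n = 3 each). After 3 h of chase the mean rate was 141% of that at the start for Hoxa4, 124% for Hoxa2 and 66.5% for Hoxa3. After 6 h it was 27.7% for Hoxa4 (libraries at 2.37% and 0.0174%), 69.4% for Hoxa2 (libraries at 4.65% and 0) and 29.1% for Hoxa3. The medians over all features were 96.1% at 3 h and 27.8% at 6 h. Hoxa7 had a mean of 679 covered T positions over all 47 libraries, under the minimum of 1000 set over all of them, although its D6 libraries alone had 1382. Its rates were 5.13%, 0 and 0.185% at the start of the chase and 0 in all 3 libraries at 9 h. By the separate count of reads with a conversion, however, the share in these libraries at 9 h was 45.5%, 0 and 0. The difference between these measures was not tested.

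**Figure D3:**
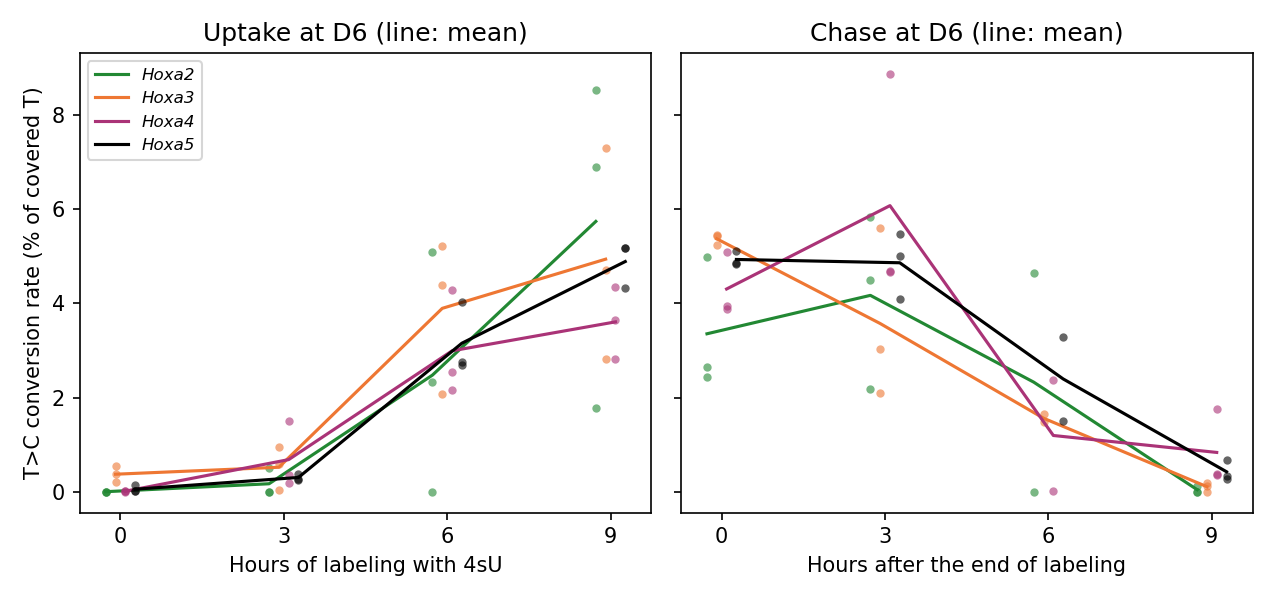
T>C conversion rate at D6 in each library (points) and the mean (lines) against hours of labeling (left) and hours after its end (right) for Hoxa2, Hoxa3, Hoxa4 and Hoxa5. Mean rates are higher at 6 h than at 3 h of labeling for all 4, and Hoxa5 stands at 4.93% at 0 h and 0.424% at 9 h of the chase.

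Of the 4 members above that minimum, all 4 were called for a gain of label in 9 h. Of the 9300 features tested, 61.8% were so called, and the median log2 difference over all of them was 6.04. The log2 difference from no 4sU was 6.54 for Hoxa5 and 3.73 for Hoxa3, with edgeR adjusted p = 0.00653 and 0.0109. For Hoxa4 it was 8.47, with edgeR adjusted p = 0.0124. Without T0 replicate 37 of the anabolic assay, the library at 0.144%, that of Hoxa5 was 9.50, and without T0 replicate 38 that of Hoxa4 was 9.40. Hoxa2 had no conversion in 13174 covered T positions without 4sU (edgeR adjusted p = 0.0132), and its rate at 9 h was at least 231-fold higher, taking 3 conversions over the group without 4sU as the floor. All 4 were also called for a loss of label in 9 h of chase. Of the 9647 features tested, 31.1% were so called, and the median log2 difference over all of them was -3.05. The log2 difference was -3.54 (SE 0.36, edgeR adjusted p = 0.000372) for Hoxa5 and -5.59 (SE 1.11, 0.00917) for Hoxa3. It was -2.37 (SE 0.76, 0.0442) for Hoxa4 and -6.03 (SE 1.86, 0.0385) for Hoxa2, and both these calls were lost when single libraries were left out. Without T9 replicate 16 the difference was -6.25 for Hoxa3 and -10.03 for Hoxa2, the latter a fitted value with no conversion left at 9 h. Without T9 replicate 18 the difference was -3.53 for Hoxa4 and -5.42 for Hoxa2. The 9 h value of Hoxa2 rests on 3 conversions, all in T9 replicate 16, and by pooled counts its rate at the start was 21.1 to 302 times that at 9 h (95% interval, counting error only).

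The share of label left after 9 h was 8.59% for Hoxa5, 1.98% for Hoxa3, 19.4% for Hoxa4 and 1.29% for Hoxa2. The median of 8644 features was 11.7%, with quartiles of 4.41% and 23.9%, so that Hoxa5 stood at percentile 39.4, Hoxa3 at 17.5, Hoxa4 at 68.5 and Hoxa2 at 14.9. The SD over libraries was 4.40 percentage points for Hoxa5 and 18.6 for Hoxa4. Without T9 replicate 18 the share of Hoxa4 was 8.64%, under the median over all features. The rate of Hoxa3 without 4sU was 0.371% ± 0.174 (SD, n = 3), above its 0.106% after 9 h of chase. With this background subtracted the share of Hoxa3 was -5.30%, so that the places of the members in the order were not settled. The share of Hoxa2 was 0 without T9 replicate 16 and 1.94% without T9 replicate 17 or 18. That of Hoxa3 was 1.19% without T9 replicate 16 and 2.97% without T9 replicate 17. The rate after 9 h of uptake was 99.1% of that at the start of the chase for Hoxa5, against a median of 72.4% over all features.

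A decay half-life at D6 met the criteria of fit (R squared over 0.6) for 2 members. It was 326 min (SE 82.5) for Hoxa5 and 203 min (SE 40.5) for Hoxa3. With the hours of the labels it was 3.31 h (SE 39.4 min) for Hoxa5 and 1.69 h (SE 21.6 min) for Hoxa3. With 0 and 9 h only it was 153 min (SE 14.04) for Hoxa5 and 95.4 min (SE 12.9) for Hoxa3. Hoxa5 thus had the longer value under all 3, and the difference between the members was not tested. A synthesis half-life met the criteria for Hoxa5, with 266 min (SE 57.8), and for Hoxa4, with 268 min (SE 53.3). With the hours of the labels it was 148 min for Hoxa5, 140 min for Hoxa4 and 133 min for Hoxa3, which then also met the criteria. With 0 and 9 h only it was 79.3 min (SE 69.7) for Hoxa5 and 206 min (SE 45.6) for Hoxa4, and Hoxa3 also met the criteria, with 149 min (SE 115). The half-lives thus depend on the hours used, though not for every pair of settings by more than their errors, and are given as descriptions.

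No member was called for a difference in reads between labeled and unlabeled cells within D6. Between the start of the chase and no 4sU, the log2 difference was 0.54 (SE 0.32) for Hoxa3, 0.11 (SE 0.17) for Hoxa5, 0.04 (SE 0.28) for Hoxa4, 0.00 (SE 0.51) for Hoxa2 and -0.45 (SE 0.73) for Hoxa7. None of these passed, where edgeR called 0 features higher and 1 lower of 10730 tested (0.00932%, with 615 at an unadjusted p under 0.05), and DESeq2 called no member either. At D0 no member passed the filter on low counts for this test.

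The few D0 reads of Hoxa3, Hoxa4 and Hoxa5 carried more conversions than D0 reads as a whole. In D0 cells without 4sU, 13 of 847 covered T positions of Hoxa5 were converted, or 1.53% (95% exact interval 0.820 to 2.61, counting error only), against 0.0456% for Hoxa5 at D6 without 4sU and 0.165% over all features at D0 without 4sU. Over all 24 D0 libraries the rate of Hoxa5 was 2.82%, against 2.73% over all D6 libraries, whereas the rate over all features was 0.764% at D0 and 2.33% at D6. It was 2.65% (1.81 to 3.74) for Hoxa3, 1.41% (0.916 to 2.08) for Hoxa4 and 1.16% (0.579 to 2.06) for Hoxa2 over the D0 libraries, the last with an interval that includes the rate over all features. Over the chase at D0, Hoxa5 stood at 5.45% at the start and 3.88% at 9 h, with overlapping intervals.

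**Figure D4:**
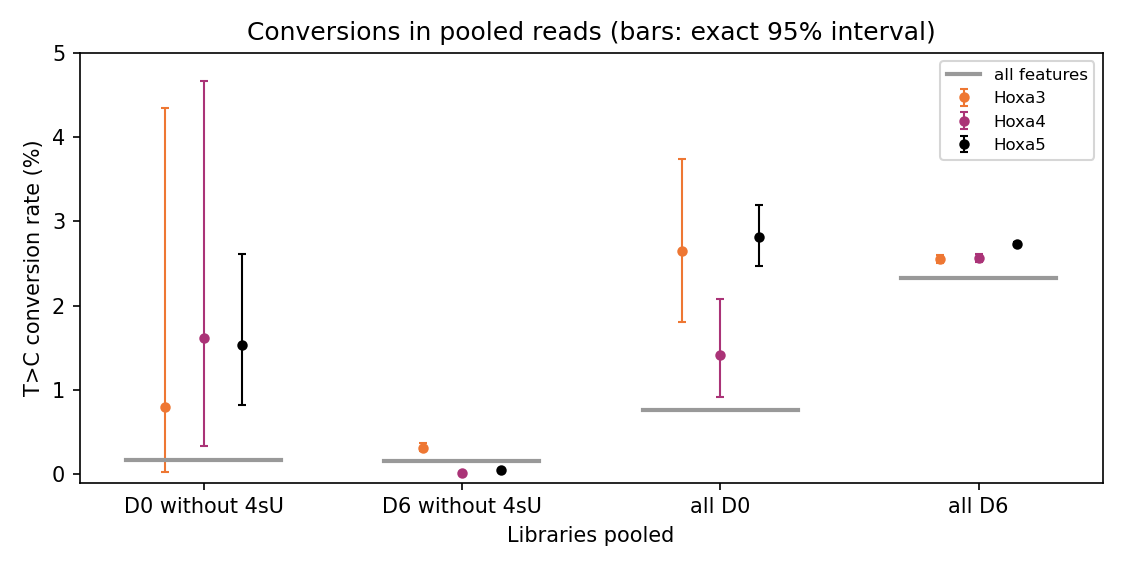
T>C conversion rate of Hoxa3, Hoxa4 and Hoxa5 in pooled libraries (points, with exact 95% intervals) and over all features (gray lines). At D0 without 4sU Hoxa5 stands at 1.53% and all features at 0.165%.

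The D0 level of each member was a small share of its D6 level. The mean CPM at D0 was 0.158% of that at D6 for Hoxa5, 0.130% for Hoxa3, 0.342% for Hoxa2, 0.387% for Hoxa4 and 0.497% for Hoxa7. The means of Hoxa2, Hoxa4 and Hoxa7 rest on 1 D0 library each, with 21, 42 and 21 reads. By the median D0 library the share was 0.183% for Hoxa2, 0.129% for Hoxa3, 0.129% for Hoxa4, 0.146% for Hoxa5 and 0 for Hoxa7. Of 7385 features with a mean of at least 20 CPM at D6, 63 had a share under 0.5%. Those of them outside the cluster had reads that in D0 cells without 4sU showed a conversion rate of 0.815%, against 0.165% in the features with a share of 20% or more. Whether these D0 reads come from D0 cells was not tested, and the D0 levels and the fold differences above are given with this limit.

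The states were compared in decay and new synthesis with the D0 coverage of the members far under the minimum, with a mean of 342 covered T positions per D0 library for Hoxa5 and 73.8 for Hoxa4, against 125438 and 18246 at D6. No D0 half-life was therefore given. No difference between the states is drawn from these slopes. In the decay slope edgeR called no member, whereas DESeq2 called Hoxa5 (adjusted p = 0.0419). Of 9834 features, edgeR called 0 higher and 1 lower (0.0102%, with 649 at an unadjusted p under 0.05, 5 and 90 with DESeq2). In newly made RNA neither tool called a member, with 0 of 9831 features called by edgeR (753 at an unadjusted p under 0.05, 14 higher and 84 lower with DESeq2).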

How the data were processed

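Reads were QuantSeq 3′ libraries, which the authors mapped to mm10 with slamdunk 0.3.3 (per the file headers), masking polymorphisms. The deposited files hold counts of reads, covered T positions, T>C conversions and reads with a conversion per RefSeq 3′ UTR interval. They also hold a fraction (the conversion rate) and CPM that the authors computed, which were not used. Deposited counts were summed over the intervals of an mRNA transcript, and transcripts with identical intervals were merged, giving 20737 features from 39419 rows. CPM was recomputed from the total reads on mRNA 3′ UTRs. Reads carry no molecular identifiers, so that intervals cover counting error only.

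Groups came from the sample labels, and the hours and 4sU doses from the study's methods. The members and gene lists were chosen with earlier results of these data known. Reads were tested with the edgeR 4.0.16 quasi-likelihood test in R 4.3.3 (TMM, its filter on low counts), and conversions by the same test, offset by log coverage of T, for features whose mean coverage was 1000 T positions per library or more over all 47 libraries. P-values were adjusted by Benjamini-Hochberg over all features tested, with calls at 0.05. Half-lives were least squares exponential fits to rates divided by the mean rate at the start of the chase, kept with R squared over 0.6 and up to 5000 min (scipy 1.17.1). Both kinds of fit were tested on simulated data. Alternatives were DESeq2 1.42.0, other normalizations, filters, coverage minimums, hours and background subtraction, and each library left out in turn. Every listed gene, every other gene of the cluster and, per list, the 2 highest and 2 lowest calls were to be named, with the 5 genes most alike in level, and a few of these are not reported here. Other genes of the lists were named after their values were seen. The feature with most reads stood for a gene. Sequences are from RefSeq (GRCm38.p6) and GENCODE transcripts of GRCm38, the build of mm10.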

Additional observations from a re-analysis of the deposited data

Results flagged for a closer look

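The non-coding rows of the cluster were not part of the comparisons, and reads appeared in them at D6. Mira, whose row lies beside that of Hoxa7 on the same strand, had a mean of 7.81 CPM at D6 without 4sU, with 121 reads over 3 libraries against 1 read at D0. It overlaps the end of a coding transcript of Hoxa7, so that its reads and those of Hoxa7 cannot be told apart there. Evx1os, beside Evx1, had a mean of 10.5 CPM at D6 without 4sU, with 117 reads in 2 of 3 libraries and none at D0. Mir196b had no read in any library.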

How the results depend on the processing

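In reads without 4sU, 5 members were called under every alternative run, and over the other 7 points DESeq2, the one alternative, gave 30 calls as edgeR did. Label loss, with 4 members called, went to 0 where 1000 covered T positions were required in each state, since no member then qualifies, and to 2 to 3 without single libraries, where both Hoxa2 and Hoxa4 lost their calls without T0 replicate 7, 8 or 9 or T9 replicate 17, Hoxa2 also without T9 replicate 18 and Hoxa4 without T9 replicate 16. With 100 covered T positions as the minimum Hoxa4 was not called (edgeR adjusted p = 0.0541). Label uptake, with 4 called, gave 5, Hoxa7 included, with 100 covered T positions as the minimum and 0 where 1000 were required in each state. DESeq2 gave no adjusted p for the uptake of Hoxa5. The decay slope, with no member called, gave 1 call with DESeq2 and with 0 and 9 h only (Hoxa5) and 2 with the hours of the labels (Hoxa3 and Hoxa5), and 0 to 1 without single libraries, the call coming without T3 replicate 14. Calls of newly made RNA stayed at 0. Members with a decay half-life went from 2 to 4 with 0 and 9 h only and to 5 with no minimum of R squared, and were 2 to 3 without single libraries. Leaving out single libraries turned the sign of values that were not called, in reads with 4sU at D6 for Hoxa2 (-0.19 to 0.18) and Hoxa4 (-0.21 to 0.25), in the decay slope for Hoxa2 (-2.57 to 0.29) and in newly made RNA for Hoxa3 (-0.033 to 0.81). The causes were not tested. No paired analysis was possible because the labels number the libraries through all groups, so that no groups compared share numbers. Coverage of the members at D0 limited every comparison of conversions between the states, although the D0 libraries were the deeper ones, with a median of 6946317 reads against 3599146 at D6.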
